A study of Homo sapiens with 6 samples.

Results

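The immediate early genes are described here in ARPE-19, an established human retinal pigment epithelial (RPE) cell line, as 10 genes picked by symbol from the 33496 listed in each library: FOS, FOSB, FOSL1, JUN, JUNB, EGR1, IER3, NR4A1, NR4A3 and KLF4. All 10 were found in every library. The series holds 6 RNA-seq libraries of wild-type ARPE-19 cells. In the 3 Era libraries the cells received 5 μM erastin for 24 h, and in the 3 Era+VK libraries they received 10 μM VK1 for 1 h and then the same erastin treatment. Erastin blocks cystine uptake and thereby induces ferroptosis, a death driven by lipid peroxidation, and VK1 is a natural form of vitamin K. Erastin is thus common to both groups, no untreated cells are compared, and the intended contrast is the VK1 pretreatment. The groups may differ in more than VK1. The study's methods dissolve VK1 in ethyl alcohol and do not say whether the Era cells received that solvent, and its part was not tested. Some Era+VK libraries also held globin transcripts, as given below. The question is whether VK1 changes early response genes in cells under ferroptotic stress. The labels do not say whether the libraries of a group came from separate cultures, so p-values measure the spread between these libraries only.

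Immediate early genes are transcribed within minutes of a stimulus, without new protein synthesis, from transcription factors already present in the cell. Growth factors act through ERK and the serum response factor (SRF), and calcium and cAMP act through CREB. Many of the products are transcription factors themselves: FOS and JUN proteins pair into AP-1, EGR1 is a zinc finger factor, and the NR4A proteins are orphan nuclear receptors. Their mRNAs are short-lived, so that a level at 24 h is a late or steady level and not the first peak. In RPE cells, oxidants and growth factors are known inducers of this class.

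The markers of mature RPE were mixed in these libraries. RPE65, the visual cycle isomerase, was at 0.02 FPKM or less in every library, and RLBP1, TYR and DCT were at 0.29 FPKM or less. The RPE transcription factors OTX2 and MITF were expressed, at 27.5 to 31.4 and 15.5 to 18.6 FPKM. BEST1, an RPE chloride channel, was at 2.65, 0.65 and 57.0 FPKM in Era and at 36.45, 0.60 and 4.80 FPKM in Era+VK. FPKM are fragments counted per unit of transcript length and relative to all fragments mapped, and 1 FPKM was the minimum mean for a test. Between 11924 and 12027 genes per library reached 1 FPKM. Globin transcripts set Era+VK replicates 2 and 3 apart. The 11 erythroid markers had a sum of 239 and 232 FPKM there, against sums of 0.07 to 0.21 FPKM elsewhere, and all 11 were higher in both of them than in each of the others. The members' fold changes are therefore also given with Era+VK replicate 1 as the sole Era+VK library.

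The promoters of 4 members are shown: FOS and JUNB as subunits of AP-1, and EGR1 and NR4A3 as the members whose groups do not overlap below. Each line is a RefSeq promoter stretch of 150 bases on GRCh38.p14, read 5′ to 3′ on the plus strand, that ends before the more upstream of the RefSeq and GENCODE 29 starts. The positions are chr14:75278624-75278773 for FOS, chr19:12791336-12791485 for JUNB, chr5:138465329-138465478 for EGR1 and chr9:99821705-99821854 for NR4A3. Capitals mark the CRE half-site TGACG, which CREB and its relatives bind, the core promoter letters TATAA, each on either strand, and the CArG box bound by SRF.
FOS: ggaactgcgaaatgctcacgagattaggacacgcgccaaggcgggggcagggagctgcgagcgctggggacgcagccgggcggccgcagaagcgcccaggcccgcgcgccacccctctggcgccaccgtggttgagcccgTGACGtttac
JUNB: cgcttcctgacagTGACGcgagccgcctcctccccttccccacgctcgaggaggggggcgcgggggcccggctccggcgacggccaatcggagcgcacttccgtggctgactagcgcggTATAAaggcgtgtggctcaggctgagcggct
EGR1: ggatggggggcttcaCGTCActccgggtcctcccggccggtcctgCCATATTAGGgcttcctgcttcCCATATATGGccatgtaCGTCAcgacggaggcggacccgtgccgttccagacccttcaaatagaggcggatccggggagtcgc
NR4A3: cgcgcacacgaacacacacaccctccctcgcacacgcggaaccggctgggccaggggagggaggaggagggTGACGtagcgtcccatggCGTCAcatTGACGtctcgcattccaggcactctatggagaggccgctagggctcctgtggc
EGR1 had both kinds of inducible element in this window, with CArG boxes whose first bases lie at -105 and -83 and CRE half-sites at -135 and -66, counted from -1 at the base before the RefSeq start. FOS had 1 half-site at -64 and, past the end of the line, TATAA letters beginning at -34 and -33, which overlap. JUNB had a half-site at -137 and TATAA at -31. NR4A3 had 4 half-sites, at -109, -91, -83 and, past the end of the line, -25.

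Promoter windows were found for 8 of the 10 members, each with 250 bases before and 50 bases after the start; FOSL1 and IER3 were not matched. The half-site was in the windows of 7 of the 8 members, all but NR4A1, and in 24.6% of 35114 promoter windows of the same length. TATAA was in those of FOS, FOSB, JUNB and KLF4, and in 20.4% of all windows. The CArG box was in that of EGR1 alone among the members, and in 1.29% of all windows. JUN had the octamer TGACATCA at -67, a sequence held by 2.61% of all windows. No member's window had the full CRE TGACGTCA (1.85% of all windows) or the AP-1 site TGANTCA (7.71% of all windows), both strands read. These are matches of letters and not measured binding.

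The levels of the 10 genes spanned the range from abundant to barely detected. JUN, an AP-1 subunit that can pair with itself, was the highest, between 63.1 and 72.55 FPKM over the 6 libraries. IER3, which modulates cell survival and ERK signalling, followed at 31.8 to 39.0 FPKM. FOSL1 (FRA-1), a stable FOS relative, was at 14.8 to 23.45 FPKM, and JUNB at 8.45 to 11.9 FPKM. EGR1 was at 0.94 to 2.35 FPKM. The ranges of these 5 genes did not overlap each other, so their order was the same in each library.

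The other 5 members were below 1 FPKM in each library. KLF4, a zinc finger factor of epithelial differentiation, was at 0.47 to 0.86 FPKM and overlapped NR4A1 at 0.47 to 0.67 FPKM. FOSB at 0.14 to 0.34 FPKM and FOS at 0.15 to 0.43 FPKM overlapped each other in turn. NR4A3 was the lowest, at 0.01 to 0.1 FPKM. JUN was at or above 98.7% of all listed genes by its mean, and FOS at or above 52.4%. The plot of levels by library shows this step between EGR1 and the genes below it.

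**Figure D1:**
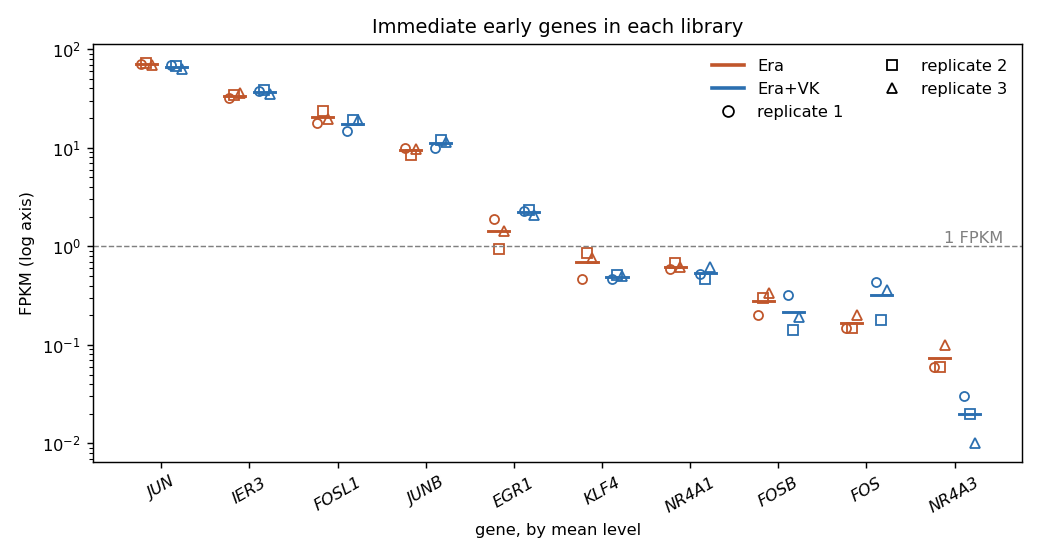
FPKM (log axis) of the 10 immediate early genes in each library, with Era in orange and Era+VK in blue, marker shapes for replicates 1 to 3, and short lines at group means. JUN, IER3, FOSL1, JUNB and EGR1 form separate steps from 72.55 down to 0.94 FPKM, and only EGR1 and NR4A3 show groups that do not overlap.

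Levels per transcript length allow the subunits of a family to be set against each other. FOS and FOSB together were a minor part of the FOS family mRNA: FOS held 0.249% to 0.807% and FOSB 0.260% to 0.601% of the summed FPKM of FOS, FOSB, FOSL1 and FOSL2. FOSL1 held 34.5 ± 4.13% (SD, n = 3) in Era and 32.3 ± 3.99% (SD, n = 3) in Era+VK. FOSL2 (FRA-2), which is no member, held the rest, 64.7 ± 4.18% and 66.7 ± 3.60%. In the JUN family, JUN held 47.2 ± 3.48% in Era and 45.7 ± 2.90% in Era+VK, with JUND at 46.5 ± 3.50% and 46.7 ± 3.67%. JUNB held 6.29 ± 0.534% in Era and 7.59 ± 1.09% in Era+VK, and its groups overlap. These shares are of mRNA and say nothing of protein or of dimers formed.

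**Figure D2:**
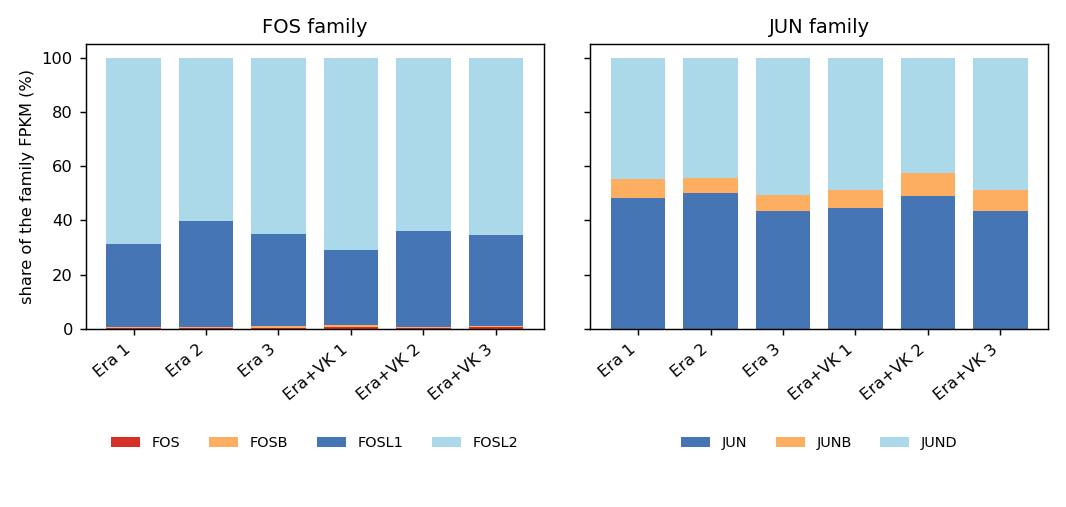
Share (%) of the summed FPKM of the FOS family (left) and JUN family (right) held by each gene, 1 bar per library. FOSL1 and FOSL2 fill nearly the whole FOS bar, with FOS at 0.807% or less, while JUN and JUND each hold between 42.5% and 50.5% of the JUN bar.

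None of the members passed the test of Era+VK against Era. The limma test ran on log2(FPKM + 1) over the 11981 genes whose mean reached 1 FPKM, and 5 members (JUN, IER3, FOSL1, JUNB and EGR1) were among them. Of these, 0 had a Benjamini-Hochberg adjusted p under 0.05, against 0.618% of all genes tested. At an unadjusted p under 0.05 there were 2 of the 5, EGR1 and JUNB, against 15.8% of all genes. The median log2 fold change of the 5 was 0.13, with 3 higher and 2 lower, and that of all genes tested was 0.03. In these bulk libraries, fewer cells of a kind and less RNA per cell cannot be told apart.

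EGR1 (ENSG00000120738; GRCh38 chromosome 5, 138465490 to 138469315 in GENCODE 29) had the widest difference of the members tested. Its level was 1.88, 0.94 and 1.43 FPKM in Era replicates 1, 2 and 3, and 2.31, 2.35 and 2.07 FPKM in Era+VK. Every Era+VK library was above every Era library, and the Era libraries were the more spread. EGR1 was the 1 tested member whose groups do not overlap, which was so for 22.1% of all genes tested. The means were 1.42 ± 0.470 and 2.24 ± 0.151 FPKM (SD, n = 3 each), a ratio of 1.58. On log2(FPKM + 1) the difference was 0.44 (standard error 0.13, 95% interval 0.13 to 0.76), and the adjusted p from limma was 0.195. The exact two-sided permutation test gave p = 0.1, the smallest that 3 libraries against 3 allow. Without Era replicate 2, the lowest library, the log2 fold change was 0.29, over 1.5 times smaller, and with Era+VK replicate 1 as the sole Era+VK library it was 0.47. Among the 8 members with a promoter window, only that of EGR1, shown above, had CArG boxes. The windows reach 250 bases before the start, and sites further upstream were not read. Whether the boxes bear on the EGR1 level was not tested. Of its family, EGR2 and EGR3 stayed at 0.13 FPKM or less and EGR4 was listed at 0 in each library.

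JUNB (ENSG00000171223; chromosome 19, 12791496 to 12793315) was at 10.03, 8.45 and 9.76 FPKM in Era and at 9.93, 11.9 and 11.4 FPKM in Era+VK. Era+VK replicate 1 lies inside the Era range, while replicates 2 and 3 lie above it. The log2 fold change was 0.21 (95% interval 0.02 to 0.40, adjusted p = 0.277 in limma), and 0.07 with replicate 1 alone in Era+VK, over 1.5 times smaller. The exons of JUNB overlap those of HOOK2 on the opposite strand, and strand use in the authors' counting is not given in the sources used here, so reads of the pair may be mixed.

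IER3 (ENSG00000137331; chromosome 6, 30743199 to 30744554) was at 31.8, 34.1 and 35.6 FPKM in Era and at 37.3, 39.0 and 34.9 FPKM in Era+VK. Era+VK replicate 3 was below the highest Era library. Its log2 fold change was 0.13 (95% interval -0.01 to 0.27, adjusted p = 0.342 in limma), 0.14 with replicate 1 alone in Era+VK and 0.09 without Era replicate 1, the lowest library. Its exons overlap IER3-AS1 on the opposite strand, with the same limit.

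JUN (ENSG00000177606; chromosome 1, 58780788 to 58784327), an intronless gene with 1 annotated transcript, was at 70.65, 72.55 and 68.5 FPKM in Era and at 69.2, 68.0 and 63.1 FPKM in Era+VK. The groups overlap, with Era+VK replicate 3 the lowest of all. The log2 fold change of JUN was -0.08 (95% interval -0.19 to 0.04, adjusted p = 0.472 in limma). Of the 5 intervals this is the narrowest. The value was -0.04 without Era+VK replicate 3, over 1.5 times smaller, and -0.03 with replicate 1 alone in Era+VK.

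FOSL1 (ENSG00000175592; chromosome 11, 65892049 to 65900573) was at 17.7, 23.45 and 19.8 FPKM in Era and at 14.8, 19.1 and 19.0 FPKM in Era+VK. Era+VK replicate 1 was the lowest library and Era replicate 2 the highest, and the remaining 4 were interleaved. The log2 fold change was -0.19 (95% interval -0.48 to 0.09, adjusted p = 0.477 in limma). It was -0.08 without Era+VK replicate 1, -0.09 without Era replicate 2 and -0.42 with replicate 1 as the sole Era+VK library.

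**Figure D3:**
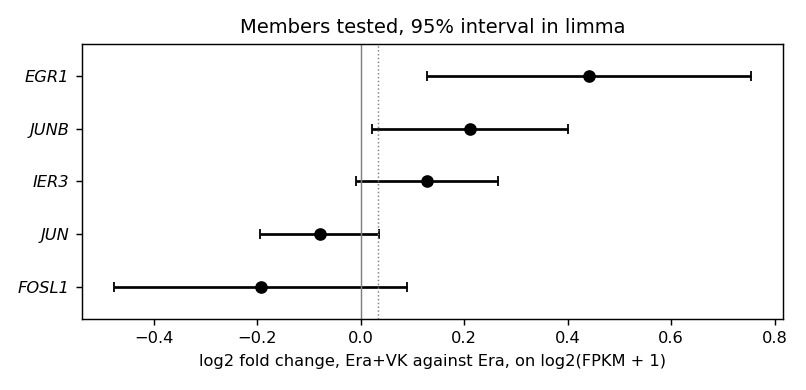
Log2 fold change of Era+VK against Era on log2(FPKM + 1) for the 5 members tested, points with 95% intervals from limma; the solid line is 0 and the dotted line the median of all genes tested, 0.03. The intervals of EGR1 and JUNB lie above 0 before any adjustment, and the adjusted p of each is above 0.05.

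The 5 low members were not tested in the main fit. Values are given with 2 decimals, and those of NR4A3, at 0.01 to 0.1 FPKM, are near the last of them. KLF4 and NR4A1, at 0.47 FPKM or more, lie further from it. FOS (ENSG00000170345; chromosome 14, 75278774 to 75282230) was at 0.15, 0.15 and 0.20 FPKM in Era and at 0.43, 0.18 and 0.36 FPKM in Era+VK. Era+VK replicate 2 was within the Era range and the other 2 above it (exact two-sided permutation p = 0.2). FOSB (ENSG00000125740; chromosome 19, 45467995 to 45475179) was at 0.20, 0.30 and 0.34 FPKM in Era and at 0.32, 0.14 and 0.19 FPKM in Era+VK, with overlapping groups (exact permutation p = 0.4). FOS and FOSB, which share induction routes in many cells, thus had means that differed in opposite directions, neither beyond the overlap of the libraries.

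NR4A3 (ENSG00000119508; chromosome 9, 99821855 to 99866891) was at 0.06, 0.06 and 0.10 FPKM in Era and at 0.03, 0.02 and 0.01 FPKM in Era+VK. Its groups do not overlap (exact permutation p = 0.1, the smallest possible), which was so for 6.45% of the 19344 genes with a signal and a mean under 1 FPKM. The gap between the groups is 0.03 FPKM, or 3 units of the last decimal. NR4A1 (ENSG00000123358; chromosome 12, 52022832 to 52059507) was at 0.59, 0.67 and 0.61 FPKM in Era and at 0.52, 0.47 and 0.61 FPKM in Era+VK, and the groups overlap (exact permutation p = 0.3). Its exons overlap the antisense gene AC025259.3. NR4A2, the third of the family, was at 0.25 to 0.48 FPKM. KLF4 (ENSG00000136826; chromosome 9, 107484852 to 107490482) was at 0.47, 0.86 and 0.77 FPKM in Era and at 0.47, 0.51 and 0.50 FPKM in Era+VK, close together in Era+VK and overlapping Era replicate 1 (exact permutation p = 0.4). In the fit with no filter on low genes, in which all 10 members were tested, 0 passed. Of all 31325 genes in that fit only 1 passed, so it cannot tell whether the low members differ.

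Over the 6 libraries the 5 tested members did not share 1 pattern. The Pearson r of log2(FPKM + 1) ranged from -0.80 for FOSL1 with EGR1 to 0.84 for JUNB with EGR1, as a description of 6 libraries that fall into 2 groups. The mean of their standardized values stood highest in Era+VK replicate 2, at 0.69. The genes with the profile most like that mean were ATP5F1A and COPS5 (r = 0.99 each), COX17, MANF and SKP1 (r = 0.98 each), and none of these 5 passed the test either. They were picked as the highest among all genes tested, and over 6 libraries such r can arise by selection alone.

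Genes next to the members in the pathway were taken from 6 lists of 105 genes, of which 86 were tested and 1 passed, against 0.618% of all genes. Of the other AP-1 and small MAF genes, 7 of 12 were tested and 0 passed. A lower mean was found in 6 of the 7, against 36.7% of all genes tested. ATF3, a stress-induced AP-1 partner, had means of 5.72 (Era) and 5.07 FPKM (Era+VK) (a log2 difference of -0.15, adjusted p = 0.319). JDP2, a repressor of AP-1, had a log2 fold change of -0.26, MAFF one of -0.23 and MAFG one of 0.17. FOSL2 and JUND, the abundant subunits, had -0.06 and -0.03. Of the other EGR, NR4A, KLF and IER genes, 10 of 14 were tested, 0 passed and the median was 0.03. A higher mean was found in 8 of the 10, against 63.3% of all genes tested. The log2 fold change was -0.17 for KLF2, -0.10 for KLF6, 0.13 for KLF9 and 0.13 for IER5L.

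The list of other immediate early genes, such as ZFP36, CCN1 and SIK1, held no gene past the threshold. Of 25, 22 were tested and 0 passed in limma at an adjusted p under 0.05. At an unadjusted p under 0.05 there were 11 of the 22, against 15.8% of all genes tested. A lower mean was found in 16 of the 22 (72.7%), against 36.7% of all genes tested, and the median log2 fold change was -0.08. The groups did not overlap for 10 of the 22 in the lower direction, against 7.04% of all genes, and for 1 in the higher direction, against 15.1% of all genes. The largest differences were those of SIK1, a CREB-induced kinase (-0.38, adjusted p = 0.131 in limma), and of ZFP36L2, an mRNA decay factor (0.36, adjusted p = 0.0813 in limma). Its relatives ZFP36 and ZFP36L1 had log2 fold changes of -0.25 and -0.24. CCN1, an SRF and YAP target, was between 256 and 291 FPKM with overlapping groups.

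Genes that ERK induces and that damp it again, such as the DUSP phosphatases and the Sprouty and SPRED inhibitors, had a median log2 fold change of -0.13. Of 17, 14 were tested and 0 passed. A lower mean was found in 12, against 36.7% of all genes tested, and 3 had an unadjusted p under 0.05, against 15.8%. ETV5, an ETS factor downstream of ERK, was at 4.09, 5.89 and 4.13 FPKM in Era and at 2.81, 3.34 and 3.23 FPKM in Era+VK (log2 fold change -0.45, adjusted p = 0.151 in limma). DUSP5, which dephosphorylates nuclear ERK, had a log2 fold change of -0.29, SPRED2 one of -0.21 and DUSP6 one of -0.20. The groups did not overlap for 3 of the 14 in the lower direction, against 7.04% of all genes tested. ETV5 and DUSP5 were among the 3, while the groups of SPRED2 and DUSP6 overlap. DUSP1, the classical immediate early phosphatase, was at 91.2 to 111.65 FPKM, above every member.

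The kinases and factors upstream, from EGFR to ELK1 and CREB1, were all expressed and 0 of 25 passed. Their median was 0.04, and 1 had an unadjusted p under 0.05, against 15.8% of all genes tested. A higher mean was found in 16 of the 25, against 63.3% of all genes tested. The groups did not overlap for 4 in the higher direction, against 15.1% of all genes, and for 0 in the lower direction, against 7.04%. The largest differences were those of MAPK9 (JNK2) at 0.18, RPS6KA1 at 0.14, MAPK3 (ERK1) at 0.12 and ATF2 at 0.12. Of 12 genes known as AP-1 targets, 8 were tested, with a median of -0.29. ITGA5, the fibronectin receptor subunit, was the 1 call and fell by 0.37 on the log2 scale (adjusted p = 0.0191 in limma). CCND1, the G1 cyclin, had -0.42 (adjusted p = 0.0877 in limma), PLAUR had -0.30 (adjusted p = 0.139) and VIM had -0.28 (adjusted p = 0.0644). The groups of these 4 genes do not overlap, which was so in the lower direction for 7.04% of all genes tested. Those of MMP1, PLAU and TIMP1 overlap. MMP1, a textbook AP-1 target, stood at 16.8 FPKM in the second Era+VK library and between 5.37 and 9.34 FPKM elsewhere. These targets are also controlled by other factors, and the call of ITGA5 was lost when any 1 of the Era libraries was left out.

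**Figure D4:**
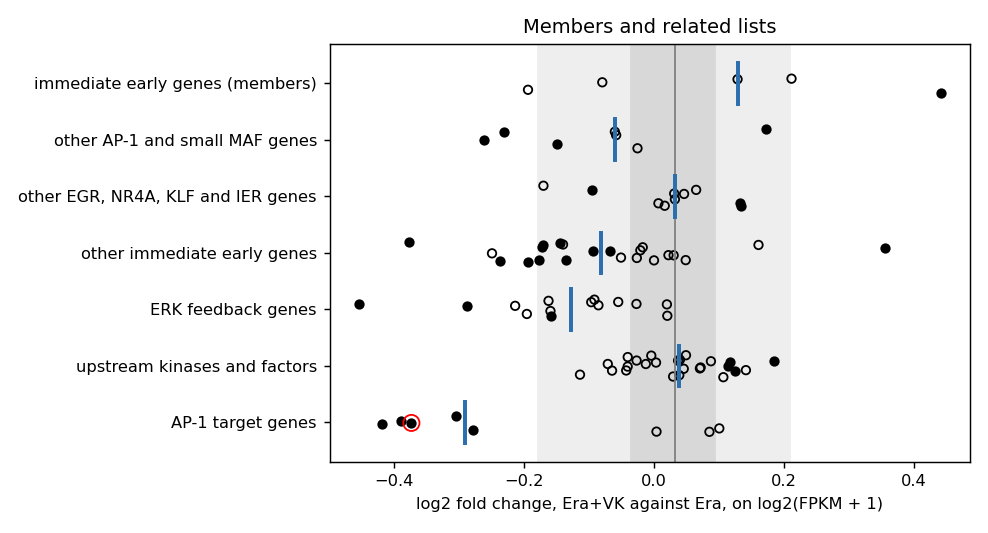
Log2 fold change of Era+VK against Era for each gene tested in the members and 6 related lists; filled points have groups that do not overlap, the red ring marks the gene past the adjusted threshold (ITGA5), and blue bars are list medians. The dark and light bands hold the middle 50% and 90% of all genes tested around their median of 0.03; the medians of the AP-1 targets (-0.29) and ERK feedback genes (-0.13) lie left of it and that of the members (0.13) right of it.

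Heat shock genes chosen as sensitive to handling were measured beside these lists. The 7 genes summed to 734 to 759 FPKM in Era and to 666 to 707 FPKM in Era+VK, without overlap. A lower mean was found in 6 of the 7, against 36.7% of all genes tested. In limma 0 passed the threshold, against 0.618% of all genes, and 2 had an unadjusted p under 0.05, against 15.8%. HSPA1A and HSPA1B, near-identical copies whose reads cannot be assigned with certainty, were at 86.7 to 91.7 and 87.8 to 90.9 FPKM. Whether handling or the erythroid transcripts had a part in the values of the early genes was not tested.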

How the data were processed

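RNA-seq values of 6 libraries of ARPE-19 cells (3 Era, 3 Era+VK) were used, grouped by sample title. The authors deposited FPKM values per gene with 2 decimals. The submitters' processing notes name cutadapt, HISAT2 and StringTie 2.1.6, and give the mouse build mm10, although the gene identifiers are human; the annotation is not given in the sources used here. Doses and times are from the study's methods. The cell line labels count upwards over the libraries, and all were taken as ARPE-19, which the titles name. In short single-exon genes, the low values showed no steps of whole reads (concentration on a scale to 1 of 0.284 to 0.343, against at least 0.966 for simulated whole reads), so depth is unknown and no counting error is given.

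The test was limma 3.58.1 in R 4.3.3 (empirical Bayes, trend), run on log2(FPKM + 1) for every gene whose mean reached 1 FPKM, and p-values were adjusted by Benjamini-Hochberg over all of these, at a threshold of 0.05. Fold changes on this scale are understated for low genes. The test was checked on simulated data. Single values were compared by the exact two-sided permutation test over samples. Members and lists were chosen with earlier results of these data known. The text names all members, and of each list the genes past the threshold and up to 4 others by size of change; family members and levels named beside them were chosen after their values were seen. Positions are from GENCODE 29, matched by identifier. For 1 listed gene no values are reported here. Alternatives were a pseudocount of 0.1, 2 other filters, 2 other scalings, no trend, the replicate number as a block, and libraries left out. FPKM are relative to all fragments of a library.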

Additional observations from a re-analysis of the deposited data

How the results depend on the processing

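The count of immediate early genes past the threshold was 0 under all 14 alternatives. Few of all genes passed in any fit, from 1 of 31325 with no filter to 122 of 11280 at a minimum of 1 FPKM in every library. With so few members tested, a count of 0 therefore says little. The log2 fold changes of JUN, IER3, FOSL1, JUNB and EGR1 kept their sign in each fit that included them. EGR1 could not be fitted at a minimum of 1 FPKM in every library. EGR1 ranged from 0.29 to 0.67 and its adjusted p in limma from 0.159 to 0.46. Of the untested members, FOSB turned from -0.07 to 0.05 with replicate 1 as the sole Era+VK library, and the cause was not tested. A pseudocount of 0.1 took FOS from 0.18 to 0.62 and NR4A3 from -0.07 to -0.53 on the log2 scale, through its construction, since it stretches low values.

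The number of all genes past the threshold was 74. It was 1 with no filter, 122 at a minimum of 1 FPKM in every library, 113 after quantile normalization, 44 without trend and 42 with the replicate block. With 1 library left out it was between 2 and 71: 3, 2 and 5 without Era replicates 1, 2 and 3, and 42 without Era+VK replicate 3. The related genes past the threshold were 1 (ITGA5), 0 with no filter, 2 (with VIM) after rescaling without mitochondrially encoded genes, and 2 (with ZFP36L2) without both Era+VK replicates 2 and 3. With 1 library left out they were between 0 and 3, the 3 (with VIM and ZFP36L2) without Era+VK replicate 2 and 0 without any 1 Era library. In the fits that leave 1 Era+VK library, that library is assumed to vary like Era. The causes were not tested.

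Replicate numbers paired the libraries weakly at most. The correlation of deviations from the group means was 0.07, 0.10 and 0.02 for numbers 1, 2 and 3. Era replicates 1 and 2 correlated best with the Era+VK replicate of the same number, and Era replicate 3 with Era+VK replicate 1 (0.04). The replicate block changed no call among the members or related genes. Depth is unknown, so how far it limits FOS, FOSB and NR4A3 cannot be given.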
